A study of Mus musculus with 12 samples.

Results

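The 10 genes described here encode 4 ligands and 6 receptors of the tumor necrosis factor (TNF) superfamily. The ligands are *Tnf*, *Tnfsf9*, *Tnfsf13b* and *Tnfsf10*, and the receptors are *Tnfrsf1a*, *Tnfrsf1b*, *Tnfrsf9*, *Tnfrsf12a*, *Cd40* and *Fas*. They were chosen by gene symbol from a count table of 52550 genes. Each had 1 row, and all 10 were among the 15885 protein-coding genes with enough counts to be tested. Counts per library ran from 5 for *Tnfrsf9* in PBS lungs to 7384 for *Tnfrsf1b* in an LPS lung.

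Bulk RNA sequencing was done on whole lungs of 12 neonatal C57Bl/6J mice, 3 in each of 4 groups. WT mice (*Adm*+/+) and *Adm*+/- mice, heterozygous for a disrupted adrenomedullin gene from a 129/SvEv line backcrossed to C57Bl/6J, received lipopolysaccharide (LPS) or phosphate-buffered saline (PBS). LPS from *Escherichia coli* O55:B5, an endotoxin that provokes inflammation, was injected into the abdomen once daily at 6 mg/kg from postnatal day 3, and lungs were taken on postnatal day 5, 6 h after the last dose. Replicates carry the library numbers of the sample labels, which are 3, 4 and 5 for WT PBS, 9, 10 and 11 for WT LPS, 6, 7 and 8 for *Adm*+/- PBS, and 1, 2 and 12 for *Adm*+/- LPS. Values are always listed in that order.

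Ligands of this family are made as membrane proteins that act as trimers, and several are cut off the cell surface to become soluble. Receptors with a death domain, such as *Tnfrsf1a* and *Fas*, can lead to cell death, while those that bind TRAF adaptors, such as *Tnfrsf1b*, *Tnfrsf9*, *Tnfrsf12a* and *Cd40*, signal mainly through NF-kappa B and MAP kinases. In the lung, macrophages release TNF soon after they sense endotoxin, and TNF acts on endothelial and epithelial cells to draw in leukocytes.

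Total counts per library ranged from 22382535 to 38062873. WT PBS replicate 5 and *Adm*+/- PBS replicate 6 stood apart, where protein-coding genes took 77.8% and 80.1% of the counts, beside 84.3% to 87.6% elsewhere. Levels are given in CPM, counts scaled to library size with TMM normalization. *Adm* itself was measured at 3.96–7.09 CPM in WT PBS, 4.46–8.15 CPM in WT LPS, 2.87–4.58 CPM in *Adm*+/- PBS and 3.74–6.28 CPM in *Adm*+/- LPS. It was lower on average in *Adm*+/- mice, with overlap between genotypes. The log2 fold change against WT was −0.50 in PBS (edgeR adjusted p = 0.999) and −0.55 in LPS (edgeR adjusted p = 0.48). Surfactant protein and other type II pneumocyte markers summed to between 13800 and 17500 CPM in every library, and type I pneumocyte markers to between 3320 and 3890 CPM, so each library carried the markers of lung. Neutrophil markers, led by *S100a8* and *S100a9*, summed to 59.5–185 CPM in WT PBS, 1700–2970 in WT LPS, 40.7–68.3 in *Adm*+/- PBS and 1610–1920 in *Adm*+/- LPS. WT PBS replicate 4 held the 185 CPM, against 59.5 and 61.3 CPM in the other WT PBS libraries, and was also the highest of its group for 8 of the 10 genes. Markers of skeletal muscle and of squamous epithelium reached their highest sums in WT LPS. Skeletal muscle markers, led by *Myh8* and *Acta1*, summed to 596–1780 CPM there and to at most 34.4 CPM elsewhere. Squamous epithelium markers, led by *Krt4* and *Krt13*, reached 2880 and 1480 CPM in WT LPS replicates 9 and 11, 25.5 CPM in replicate 10 and at most 40.8 CPM elsewhere.

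All 10 genes lie on autosomes of the mm10 build. *Tnf* (ENSMUSG00000024401) lies on the minus strand at chr17:35199381-35202007, *Tnfsf9* (ENSMUSG00000035678) on the plus strand at chr17:57105325-57107757, *Tnfsf13b* (ENSMUSG00000031497) on the plus strand at chr8:10006467-10039072, and *Tnfsf10* (ENSMUSG00000039304) on the plus strand at chr3:27317028-27342427. *Tnfrsf1a* (ENSMUSG00000030341) lies on the plus strand at chr6:125349362-125362484, *Tnfrsf1b* (ENSMUSG00000028599) on the minus strand at chr4:145213463-145246870, and *Tnfrsf9* (ENSMUSG00000028965) on the plus strand of the same chromosome at chr4:150914562-150946102. *Tnfrsf12a* (ENSMUSG00000023905) lies on the minus strand at chr17:23675445-23677468, *Cd40* (ENSMUSG00000017652) on the plus strand at chr2:165055627-165072948, and *Fas* (ENSMUSG00000024778) on the plus strand at chr19:34290666-34327772. In Gencode release M21, *Tnfsf9* overlaps Gm11110, *Tnfsf13b* overlaps Gm44789 and *Tnfrsf9* overlaps *Camta1*, each on the opposite strand, and *Fas* overlaps Gm27818 on its own strand. The strand setting of the counting is not given in the sources used here, so reads of these pairs may not be fully separated.

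Sequences upstream of the transcription start are shown for *Tnf* and for *Fas*, *Tnfrsf1b* and *Tnfrsf9*, receptors that rose after LPS in both genotypes, beside *Tnfrsf12a*, whose response was not called in either. RefSeq start sites on the mm10 assembly were found for 8 of the 10 genes, in 10 windows, and *Tnfsf9* and *Cd40* had no entry. Capitals mark matches, on either strand, of 4 motifs searched in the 250 bases before each start. The motifs were the NF-kappa B consensus, the AP-1 motif TGANTCA, the STAT motif TTCNNNGAA and the TATA box TATAAA. Of 32851 windows of the same length in the reference, 7.25% held the NF-kappa B consensus, 6.75% TGANTCA, 7.02% TTCNNNGAA and 12.4% TATAAA. Each run is given 5′ to 3′ on the strand of its gene and stops before the first base of any exon in Gencode M21, except the short *Tnfrsf9* stretch, which lies inside an exon of another *Tnfrsf9* transcript. The runs are *Tnf* chr17:35202008-35202257 (minus strand), *Fas* chr19:34290409-34290658 (plus strand), *Tnfrsf1b* chr4:145246871-145247120 (minus strand), *Tnfrsf12a* chr17:23677469-23677699 (minus strand), and for *Tnfrsf9* chr4:150927749-150927917 with a shorter stretch at chr4:150927950-150927973 (both plus strand).
Tnf: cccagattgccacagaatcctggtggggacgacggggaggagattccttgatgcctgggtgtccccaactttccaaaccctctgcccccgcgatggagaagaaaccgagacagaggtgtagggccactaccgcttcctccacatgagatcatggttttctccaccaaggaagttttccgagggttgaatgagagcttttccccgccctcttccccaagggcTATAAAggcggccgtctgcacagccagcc
Fas: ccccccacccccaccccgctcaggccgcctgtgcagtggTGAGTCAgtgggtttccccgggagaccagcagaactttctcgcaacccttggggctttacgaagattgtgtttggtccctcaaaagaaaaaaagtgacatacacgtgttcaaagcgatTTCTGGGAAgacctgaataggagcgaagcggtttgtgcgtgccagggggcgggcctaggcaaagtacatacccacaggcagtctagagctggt
Tnfrsf1b: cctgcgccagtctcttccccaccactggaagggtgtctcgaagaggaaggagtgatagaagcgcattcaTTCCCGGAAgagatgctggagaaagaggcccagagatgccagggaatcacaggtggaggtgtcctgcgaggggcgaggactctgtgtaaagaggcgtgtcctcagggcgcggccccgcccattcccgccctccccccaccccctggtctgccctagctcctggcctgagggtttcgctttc
Tnfrsf12a: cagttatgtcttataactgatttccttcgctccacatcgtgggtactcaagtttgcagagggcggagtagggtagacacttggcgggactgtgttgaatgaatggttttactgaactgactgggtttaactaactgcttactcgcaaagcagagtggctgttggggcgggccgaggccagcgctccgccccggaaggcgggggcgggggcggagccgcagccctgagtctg
Tnfrsf9, far: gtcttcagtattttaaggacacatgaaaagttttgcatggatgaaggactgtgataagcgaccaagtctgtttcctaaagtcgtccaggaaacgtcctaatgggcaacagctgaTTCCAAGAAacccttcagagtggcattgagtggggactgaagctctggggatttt
Tnfrsf9, near: gcagctGGGGATTTCCCaggaggc
The *Tnf* window held TATAAA from 29 to 24 bases before the start and no match of the other motifs. Among the 10 windows, the NF-kappa B consensus was found only in a *Tnfrsf9* window. It gave 2 overlapping matches from 43 to 34 and from 42 to 33 bases before the start at 150927999. The same window held a STAT motif from 136 to 128 and an AP-1 motif from 15 to 9 bases before the start, the last of which lies outside the printed runs. *Fas* had an AP-1 motif from 211 to 205 and a STAT motif from 93 to 85 bases before its start, and *Tnfrsf1b* had a STAT motif from 181 to 173. Among the windows not printed, *Tnfsf13b* held an AP-1 motif from 127 to 121 bases before its start at 10006633, and *Tnfrsf1a* a STAT motif from 244 to 236 bases before its start at 125349723. Neither the *Tnfrsf12a* nor the *Tnfsf10* window held any of the 4. The other *Tnfrsf9* window (start at 150920155) and the other *Tnfsf13b* window (start at 10006467) held none of them either. These letter matches are a description of the reference sequence and were not tested for binding.

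To see which of the genes respond to endotoxin in the neonatal lung, LPS was compared with PBS within each genotype. A gene was called at an adjusted p below 0.05 with an absolute log2 fold change above 0.5. In WT mice 6 of the 10 genes were called higher after LPS and 0 lower, against 10.5% of all tested genes called higher and 7.09% called lower. In *Adm*+/- mice 8 were called higher and 0 lower, against 12.8% and 12.2% of tested genes. *Tnf*, *Tnfsf13b*, *Tnfrsf1a*, *Tnfrsf1b*, *Tnfrsf9* and *Fas* rose in both genotypes. The median log2 fold change of the 10 genes was 0.93 in WT mice and 1.56 in *Adm*+/- mice, beside 0.01 and −0.01 over all tested genes. In whole-lung RNA, more cells of a type and more RNA per cell cannot be told apart.

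**Figure D1:**
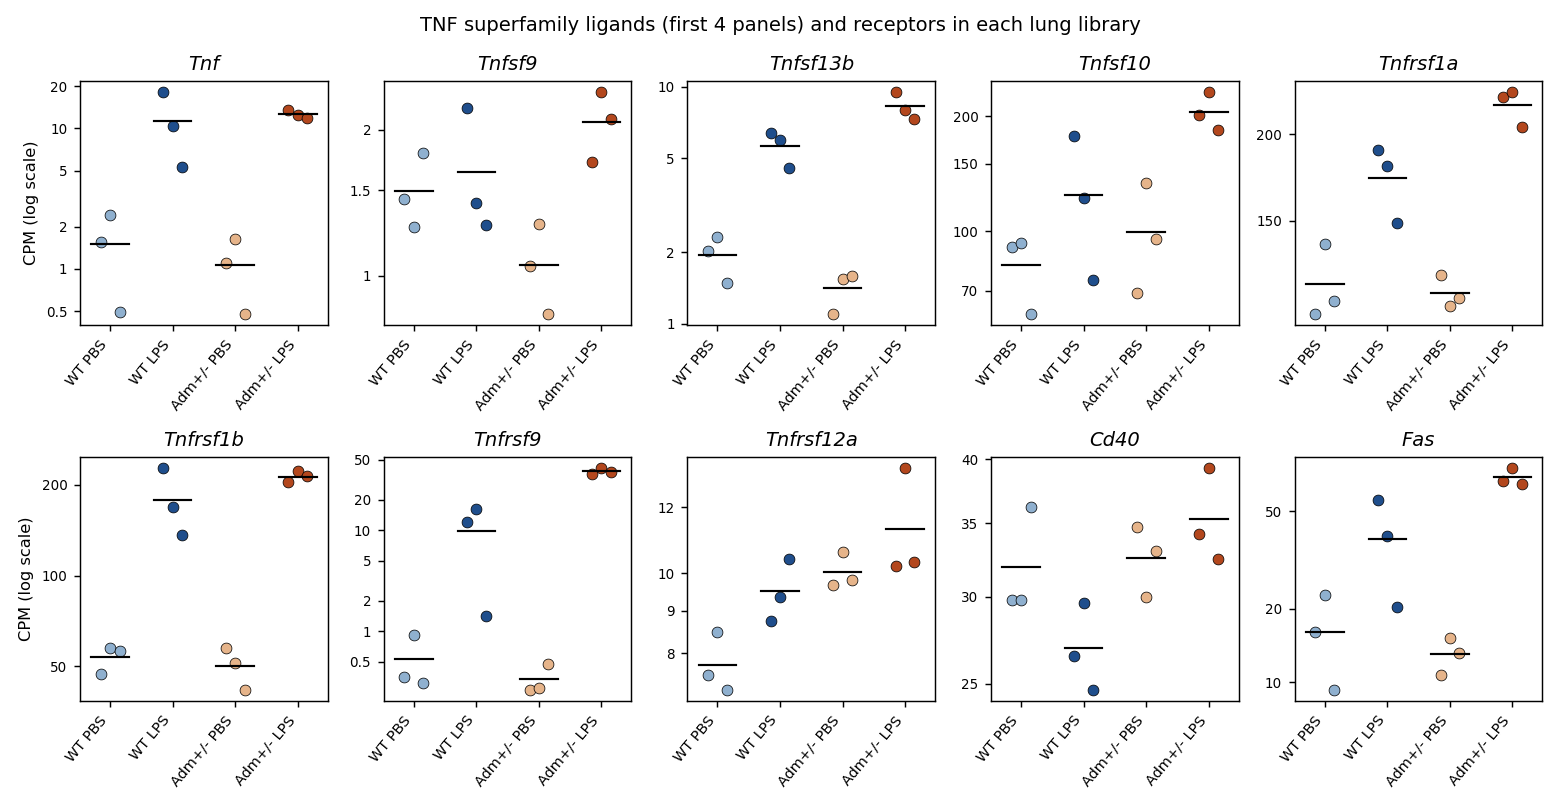
Level of each gene in CPM (log scale, a separate axis for each gene) in the 3 libraries of each group, shown as points in the order of their replicate numbers, with the group mean as a line. *Tnfrsf9* lies under 1 CPM in all 6 PBS libraries and between 36.4 and 41.7 CPM in *Adm*+/- LPS, while WT LPS replicate 11 stays at 1.43 CPM.

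*Tnf*, the founding cytokine of the family, was measured in WT mice at 1.55, 2.43 and 0.494 CPM with PBS and at 18.1, 10.4 and 5.34 CPM with LPS. In *Adm*+/- mice it was at 1.10, 1.62 and 0.477 CPM with PBS and at 13.5, 12.4 and 11.8 CPM with LPS. Every LPS library lay above every PBS library of its genotype. The log2 fold change was 2.89 (SE 0.54, edgeR adjusted p = 0.00414) in WT mice and 3.54 (SE 0.56, edgeR adjusted p = 8e-04) in *Adm*+/- mice.

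*Tnfsf13b* encodes BAFF, a survival factor for B cells. Its levels in WT mice were 2.02, 2.33 and 1.48 CPM with PBS and 6.41, 5.95 and 4.54 CPM with LPS, and in *Adm*+/- mice 1.10, 1.55 and 1.59 CPM with PBS and 9.5, 8 and 7.34 CPM with LPS. The groups were separate in both genotypes, and the *Adm*+/- LPS libraries were the highest of the 12. It rose by 1.52 on the log2 scale (SE 0.22, edgeR adjusted p = 0.00109) in WT mice and by 2.53 (SE 0.23, edgeR adjusted p = 6.09e-05) in *Adm*+/- mice. B cell markers summed to 41.5–73 CPM in WT PBS, 56–72.3 in WT LPS, 43.3–60.3 in *Adm*+/- PBS and 43.5–47.6 in *Adm*+/- LPS. In WT mice 0 of 10 were called. In *Adm*+/- mice 1 of 10 was called lower, which is near the 12.2% of all tested genes called lower there.

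*Tnfsf10* encodes TRAIL, a ligand that can start cell death, and had the highest level per length of the 4 ligands in every group. WT libraries held 91.3, 93.2 and 60.9 CPM with PBS and 177, 122 and 74.6 CPM with LPS, so WT LPS replicate 11 lay inside the PBS range and the change was not called (log2 fold change 0.61, SE 0.30, edgeR adjusted p = 0.171). *Adm*+/- libraries held 68.9, 134 and 95.5 CPM with PBS and 201, 231 and 184 CPM with LPS, without overlap. The *Adm*+/- log2 fold change was 1.04 (SE 0.30, edgeR adjusted p = 0.0233). That call was lost on leaving out *Adm*+/- PBS replicate 6 (0.83) or 8 (1.01) or *Adm*+/- LPS replicate 1 (1.06) or 2 (0.95), with adjusted p-values from 0.0552 to 0.0893.

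*Tnfsf9*, the ligand of the receptor *Tnfrsf9*, was low throughout. It was measured at 1.44, 1.26 and 1.79 CPM in WT PBS and at 2.22, 1.41 and 1.27 CPM in WT LPS, which overlapped (log2 fold change 0.15, SE 0.28, edgeR adjusted p = 0.733). That small WT value turned to −0.15 without WT LPS replicate 9. *Adm*+/- PBS libraries had 1.05, 1.28 and 0.835 CPM and *Adm*+/- LPS libraries 1.72, 2.39 and 2.1 CPM, which did not overlap. It rose in *Adm*+/- mice by 0.96 (SE 0.28, edgeR adjusted p = 0.0236), resting on 20 to 59 counts per library. Without *Adm*+/- PBS replicate 6 (0.95) or 8 (0.81) or *Adm*+/- LPS replicate 2 (0.85) or 12 (0.95) the call was lost, with adjusted p-values from 0.0652 to 0.0915.

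Among the receptors, *Tnfrsf1a* and *Tnfrsf1b* both bind TNF, the first widely expressed and the second more restricted to leukocytes and endothelium. *Tnfrsf1a* was at 110, 139 and 115 CPM in WT PBS, 190, 180 and 149 CPM in WT LPS, 125, 113 and 116 CPM in *Adm*+/- PBS and 226, 230 and 205 CPM in *Adm*+/- LPS. Its groups did not overlap within a genotype, and its rise was among the smaller ones. The log2 fold change was 0.51 (SE 0.12, edgeR adjusted p = 0.012) in WT mice and 0.90 (SE 0.12, edgeR adjusted p = 0.000292) in *Adm*+/- mice. The WT value sits at the fold limit, and the call was lost without WT PBS replicate 3 (0.44) or 5 (0.47) or WT LPS replicate 9 (0.43) or 10 (0.48).

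*Tnfrsf1b* was at 47.3, 57.7 and 56.1 CPM in WT PBS, 228, 169 and 136 CPM in WT LPS, 57.4, 51.3 and 41.9 CPM in *Adm*+/- PBS and 204, 222 and 214 CPM in *Adm*+/- LPS. Each LPS library held more than any PBS library. It rose by 1.73 (SE 0.18, edgeR adjusted p = 0.000161) in WT mice and by 2.09 (SE 0.18, edgeR adjusted p = 5.41e-05) in *Adm*+/- mice, and both calls held in all 22 alternatives. Monocyte and macrophage markers, led by *Lyz2* and *Csf1r*, moved in the same direction, with summed levels of 1050–1280 CPM in WT PBS, 1620–2190 in WT LPS, 1030–1240 in *Adm*+/- PBS and 1860–2280 in *Adm*+/- LPS. Of those 10 markers, 8 were called higher in WT mice, and 7 higher and 1 lower in *Adm*+/- mice. Of the 10 neutrophil markers, 9 were called higher in WT mice and 10 in *Adm*+/- mice. The part of either cell type in the receptor and ligand levels was not tested.

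*Tnfrsf9* encodes 4-1BB, a costimulatory receptor of activated T and NK cells that is also found on myeloid and endothelial cells. It was barely counted in PBS lungs, at 0.349, 0.922 and 0.309 CPM in WT mice and 0.263, 0.27 and 0.477 CPM in *Adm*+/- mice, which is 5 to 19 counts per library. WT LPS libraries held 12.1, 16.2 and 1.43 CPM, so replicate 11 was far below its group mates but still above the PBS libraries. All 3 *Adm*+/- LPS libraries were high, at 36.4, 41.7 and 38.2 CPM. The log2 fold change was 4.22 (SE 0.75, edgeR adjusted p = 0.00313) in WT mice and 6.82 (SE 0.80, edgeR adjusted p = 0.000158) in *Adm*+/- mice, the largest of the 10 genes in each. Without WT PBS replicate 4 the WT value was 4.87. The study drew *Tnfrsf9* as an NK cell marker chosen on these samples, so its direction here is not independent evidence on such a list. NK cell markers, led by *Gzma* and *Gzmb*, were low in all libraries and summed to 4.31–5.25 CPM in WT PBS, 7.29–12.9 in WT LPS, 3.7–5.21 in *Adm*+/- PBS and 9.5–17.2 in *Adm*+/- LPS. Of the 8 tested, 3 were called higher in WT mice and 4 in *Adm*+/- mice, beside 10.5% and 12.8% of all tested genes. The 8 had a median log2 fold change of 0.14 in WT mice (5 positive) and 0.82 in *Adm*+/- mice (7 positive). *Ncr1*, 1 gene of the list, was at 0.247–0.631 CPM in WT PBS, 0.277–0.624 in WT LPS, 0.199–0.473 in *Adm*+/- PBS and 0.262–0.419 in *Adm*+/- LPS. T cell markers summed to 20.1–24 CPM in WT PBS, 16–17.7 in WT LPS, 18.3–21.7 in *Adm*+/- PBS and 14.6–16.2 in *Adm*+/- LPS. How far any of these cells account for *Tnfrsf9* was not tested.

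*Fas*, a death receptor, was measured in WT mice at 16.1, 22.8 and 9.33 CPM with PBS and at 55.7, 39.7 and 20.3 CPM with LPS. WT LPS replicate 11 lay below WT PBS replicate 4, so these groups overlapped. In *Adm*+/- mice the levels were 10.7, 15.1 and 13.2 CPM with PBS and 66.6, 75.1 and 64.6 CPM with LPS, far apart. It rose by 1.26 (SE 0.35, edgeR adjusted p = 0.0261) in WT mice and by 2.40 (SE 0.36, edgeR adjusted p = 0.000595) in *Adm*+/- mice. The WT call was lost without WT PBS replicate 3 (1.25) or 5 (0.99) or WT LPS replicate 9 (0.89) or 10 (1.24), with adjusted p-values from 0.0534 to 0.136.

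*Cd40* and *Tnfrsf12a* were not called in either genotype. *Cd40*, the costimulatory receptor of B cells and other antigen-presenting cells, was at 29.8, 29.8 and 36.2 CPM in WT PBS and at 26.5, 29.6 and 24.7 CPM in WT LPS, which lay just below (log2 fold change −0.24, SE 0.12, edgeR adjusted p = 0.17). In *Adm*+/- mice *Cd40* was at 34.7, 30 and 33 CPM with PBS and at 34.2, 39.3 and 32.5 CPM with LPS (log2 fold change 0.12, edgeR adjusted p = 0.495). The 95% interval of its log2 fold change was −0.51 to 0.02 in WT mice and −0.15 to 0.39 in *Adm*+/- mice. *Tnfrsf12a*, the receptor for TWEAK, was at 7.53, 8.49 and 7.23 CPM in WT PBS, 8.75, 9.36 and 10.4 CPM in WT LPS, 9.68, 10.6 and 9.82 CPM in *Adm*+/- PBS and 10.2, 13.4 and 10.3 CPM in *Adm*+/- LPS. Its WT groups were separate by a small margin and its *Adm*+/- groups overlapped. The log2 fold changes were 0.29 (95% interval −0.03 to 0.61, edgeR adjusted p = 0.168) and 0.17 (95% interval −0.14 to 0.48, edgeR adjusted p = 0.401). Its coefficient of variation was the lowest of the 10 genes in 3 of the groups (8.52% in WT PBS, 8.74% in WT LPS and 5.18% in *Adm*+/- PBS), and was 15.7% in *Adm*+/- LPS, where only that of *Tnfsf9* was higher at 16.2%.

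**Figure D2:**
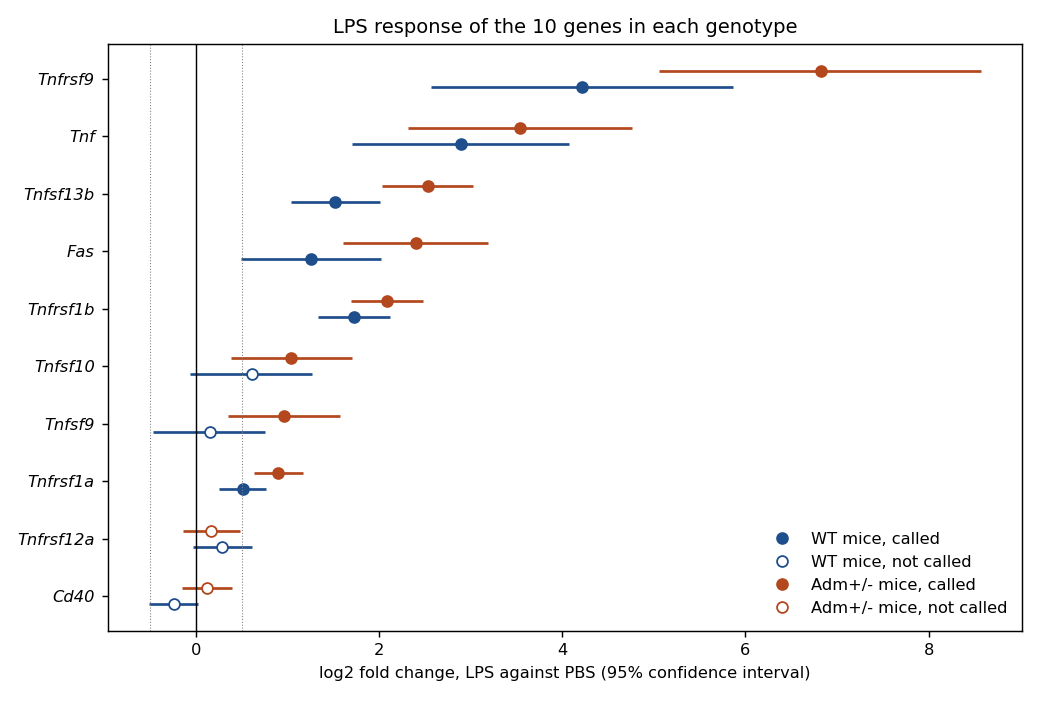
Log2 fold change of LPS against PBS with its 95% confidence interval for each gene in WT (blue) and *Adm*+/- mice (red-brown), with filled points for called genes and dotted lines at −0.5 and 0.5. Estimates run from −0.24 (*Cd40*, WT) to 6.82 (*Tnfrsf9*, *Adm*+/-), and 6 WT and 8 *Adm*+/- points are filled.

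Counting libraries without overlap, 6 of the 10 genes lay higher in WT LPS than in WT PBS and 1 (*Cd40*) lower, beside 18.3% and 17.9% of tested genes. In *Adm*+/- mice 8 lay higher and 0 lower, beside 26.6% and 27.1%.

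Levels were next put on a per-length scale, so that genes can be compared with each other (RPKM, which is CPM divided by the exonic length in kilobases). *Tnfrsf1a* stood first in all 4 groups, at 46.9 ± 6.06 RPKM in WT PBS, 66.8 ± 8.26 in WT LPS, 45.5 ± 2.47 in *Adm*+/- PBS and 85.1 ± 5.09 in *Adm*+/- LPS (mean ± SD, n = 3). *Tnfsf10* and *Tnfrsf1b* followed in PBS lungs, at 15.5 ± 3.44 and 14.1 ± 1.46 RPKM in WT and 18.9 ± 6.21 and 13.2 ± 2.05 RPKM in *Adm*+/-, and their ranges overlapped. With LPS, *Tnfrsf1b* moved to the second place, at 46.5 ± 12.2 RPKM in WT, where its range met that of *Tnfrsf1a*, and at 55.8 ± 2.36 RPKM in *Adm*+/-, where it stood clear of both neighbours. *Fas* came next after *Tnfsf10* with LPS, at 18.7 ± 8.61 RPKM in WT and 33.3 ± 2.71 RPKM in *Adm*+/-, in each case overlapping it (23.6 ± 9.76 and 38.9 ± 4.50 RPKM). The lower end of the order held *Tnfsf13b* and *Tnfrsf9* in PBS lungs, at 0.283 ± 0.0624 and 0.194 ± 0.126 RPKM in WT and 0.206 ± 0.0394 and 0.124 ± 0.0447 RPKM in *Adm*+/-, overlapping each other in both. *Tnfrsf9* moved from the tenth to the eighth place in WT LPS (3.64 ± 2.80 RPKM, overlapping its neighbours) and, in *Adm*+/- mice, to the fifth place in *Adm*+/- LPS (14.2 ± 0.992 RPKM, without overlap with *Fas* above or *Cd40* below). *Tnf* reached 6.87 ± 3.92 RPKM in WT LPS and 7.67 ± 0.504 RPKM in *Adm*+/- LPS from 0.91 ± 0.59 and 0.652 ± 0.35 RPKM with PBS. *Cd40* stayed between mean levels of 7.90 and 10.4 RPKM, and *Tnfrsf12a* between 4.01 and 5.86 RPKM.

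The genotypes were then compared directly. With PBS, 0 of the 10 genes were called in either direction by edgeR, as were 0% of tested genes, and 1 had an unadjusted p below 0.05, beside 2.17% of tested genes. That gene was *Tnfrsf12a*, higher in all 3 *Adm*+/- libraries than in any WT library (log2 fold change 0.37, SE 0.15, edgeR adjusted p = 0.999), and 0 of the 10 lay lower without overlap, beside 2.47% and 2.51% of tested genes. The median log2 fold change of the 10 genes was −0.20 (3 of 10 positive), and 0.01 without WT PBS replicate 4 (5 of 10 positive). Neutrophil markers had a median of −1.06 (0 of 10 positive), set against the WT PBS group that holds replicate 4. Neither DESeq2 nor limma-voom called any of the 10.

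With LPS, all 10 genes had a positive log2 fold change for *Adm*+/- against WT, with a median of 0.37 beside 0 over all tested genes, of which 49.2% were positive. No gene was called (0 of 10 by edgeR), 6 had an unadjusted p below 0.05 beside 14.3% of tested genes, and among all tested genes 0.327% were called higher and 1.72% lower. In 6 genes every *Adm*+/- LPS library lay above every WT LPS library and in 0 below, beside 12.2% and 12.4% of tested genes. These were *Tnfrsf9* (log2 fold change 1.97, SE 0.58, edgeR adjusted p = 0.112), *Fas* (0.83, SE 0.34, edgeR adjusted p = 0.28), *Tnfsf10* (0.72, SE 0.30, edgeR adjusted p = 0.298), *Tnfsf13b* (0.55, SE 0.21, edgeR adjusted p = 0.223), *Cd40* (0.39, SE 0.12, edgeR adjusted p = 0.132) and *Tnfrsf1a* (0.35, SE 0.12, edgeR adjusted p = 0.173). *Tnf* itself had means of 11.3 ± 6.42 CPM in the WT and 12.6 ± 0.826 CPM in the *Adm*+/- group (SD, n = 3, log2 fold change 0.16, 95% interval −0.88 to 1.19), and the value turned to −0.18 without WT LPS replicate 11. *Tnfrsf9* was called with limma-voom (2.52, adjusted p = 0.0482) and, in edgeR, without WT LPS replicate 11 (1.46, adjusted p = 0.0428). DESeq2 called none of the 10. Between the same LPS groups, neutrophil markers had a median log2 fold change of −0.24 (1 of 10 positive) and monocyte and macrophage markers of −0.32 (2 of 10 positive), and NK cell markers of 0.29 (5 of 8 positive). Skeletal muscle markers had a median of −5.82, with 9 of 10 called lower in *Adm*+/- mice, and squamous epithelium markers of −6.16, with 3 of 8 called lower. The part of these cells and tissues in the genotype values was not tested. With replicate 10 as the only WT LPS library, a fit chosen after seeing the data, the value of *Tnfrsf9* was 1.26. All 10 genes kept a positive sign in that fit. Replicate 10 held 1760 CPM of skeletal muscle markers, so the fit did not remove these markers, and their part was not tested.

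Whether the response to LPS differed between genotypes was tested as the difference between the fold changes. The difference (*Adm*+/- fold change minus WT fold change, log2) was positive for 9 of the 10 genes, with a median of 0.54 beside −0.01 over all tested genes, of which 48.8% were positive. The exception was *Tnfrsf12a* (−0.12, 95% interval −0.57 to 0.32). Neutrophil markers also had a positive difference, in 10 of 10 with a median of 0.80, none of them called, in a comparison that includes WT PBS replicate 4 with its higher level of these markers. Without that library 9 of the 10 genes still had a positive difference, with a median of 0.37, and that of *Tnf* was 0.16. NK cell markers had a median of 0.37 (6 of 8 positive), and monocyte and macrophage markers of −0.18 (4 of 10 positive), and the part of these cells was not tested. No difference was called by edgeR, DESeq2 or limma-voom (0 of 10), beside 0% of tested genes called higher and 0.145% lower by edgeR, and 4 had an unadjusted p below 0.05, beside 7.85% of tested genes. These were *Tnfsf13b* (1.01, 95% interval 0.32 to 1.69, edgeR adjusted p = 0.408), *Tnfrsf1a* (0.39, 95% interval 0.03 to 0.76, edgeR adjusted p = 0.591), *Fas* (1.14, 95% interval 0.07 to 2.21, edgeR adjusted p = 0.594) and *Tnfrsf9* (2.60, 95% interval 0.09 to 5.11, edgeR adjusted p = 0.611). The value for *Tnfrsf9* fell to 1.94 without WT PBS replicate 4. *Tnf* had a difference of 0.65 (95% interval −0.99 to 2.30) and *Tnfrsf1b* of 0.36 (95% interval −0.18 to 0.90). The WT LPS libraries that enter this comparison are the ones high in skeletal muscle markers and, in replicates 9 and 11, in squamous epithelium markers. Without replicates 9 and 11, the 2 libraries with the most squamous markers, WT LPS is left with replicate 10 alone, which held 1760 CPM of skeletal muscle markers, and its spread is assumed to be that of the other groups. The difference was then 0.93 for *Tnfsf13b*, 0.33 for *Tnfrsf1a*, 1.1 for *Fas* and 1.9 for *Tnfrsf9*. The part of these tissues in the response of the 10 genes was not tested.

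**Figure D3:**
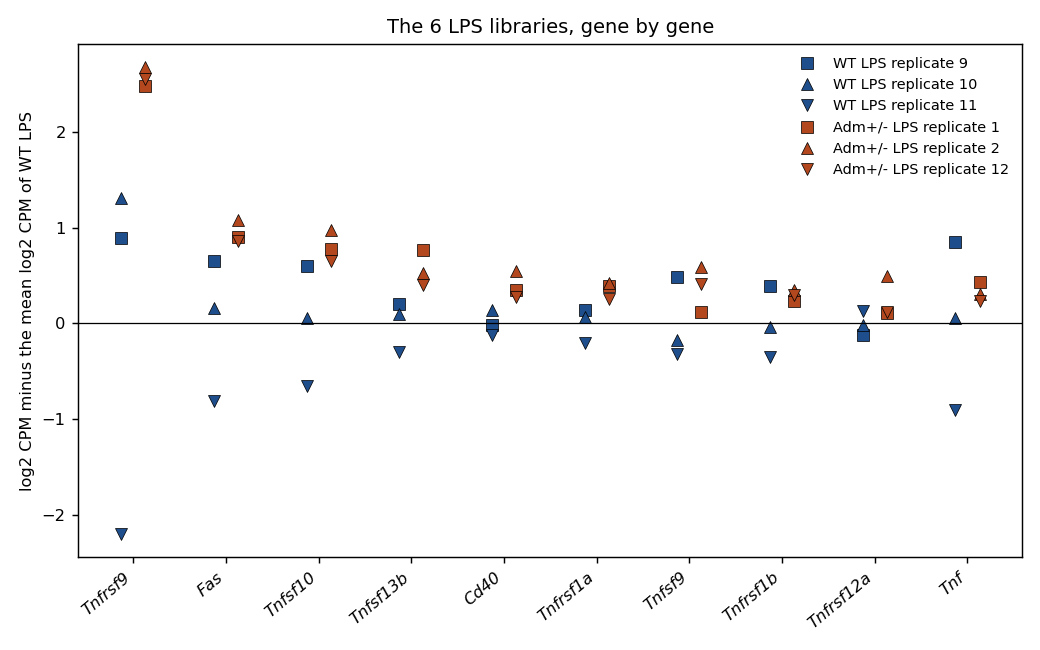
Log2 CPM of each gene in the 6 LPS libraries, minus the mean log2 CPM of the 3 WT LPS libraries (zero line), with genes ordered by the log2 fold change of *Adm*+/- against WT. WT LPS replicate 11 is the lowest WT library for 9 of the 10 genes, and the *Adm*+/- LPS libraries lie close together.

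The WT LPS libraries were more spread than the *Adm*+/- LPS libraries. The median coefficient of variation of the 10 genes was 28.7% in WT LPS, beside 11.6% for all tested genes, and 9.05% in *Adm*+/- LPS, beside 8.19%. It was 20% in WT PBS (20.2% for all tested genes) and 18% in *Adm*+/- PBS (13.1%). *Tnfrsf9* had the highest value in WT LPS, at 76.9%, and *Tnf* followed at 57.1%, against 6.96% and 6.56% in *Adm*+/- LPS. In 8 of the 10 genes the WT LPS group varied more than *Adm*+/- LPS, as did 64.9% of tested genes. WT LPS replicate 11 was the lowest of its group for 9 of the 10 genes, and for 45.9% of the 1664 genes called higher in WT mice. WT LPS replicate 9 was the highest of its group for 7 of the 10 genes, and for 71.1% of those 1664. The 2 libraries were alike in holding squamous markers and differed in skeletal muscle markers, at 1780 CPM in replicate 9 and 596 CPM in replicate 11.

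Across all 12 libraries the profile of *Tnf* was most like that of *Fpr2*, a formyl peptide receptor of myeloid cells, followed by *Msr1*, *Casp4*, *Siglece* and *Ms4a6d*. The measure was the root mean square difference between centred log2 CPM values, which was 0.33 for *Fpr2*, 0.39 for *Msr1*, 0.40 for *Casp4* and *Siglece* and 0.41 for *Ms4a6d*, beside a median of 1.78 over the tested genes. *Tnfrsf9* was most like *Cxcl5* (0.53), a neutrophil chemokine, then *Ccl4* (0.55), *Selp* (0.56), *Steap4* (0.63) and *Ch25h* (0.65), beside a median of 2.84. The 12 points of each profile share the libraries and their 4 groups.

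The other members of the superfamily were measured next. Of 36 other ligands and receptors, 28 had enough counts to be tested, so 38 of the 46 superfamily genes were tested in all. In the whole family, with the 10 genes included, 14 genes were called higher and 1 lower in WT mice (median log2 fold change 0.53). In *Adm*+/- mice 21 were called higher and 3 lower (median 0.73). Of all tested genes, 10.5% were called higher and 7.09% lower in WT mice, and 12.8% and 12.2% in *Adm*+/- mice. The counts of lower family genes are below these shares. No gene of the family was called in the difference between genotypes or in either genotype comparison by edgeR.

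Only 7 of the 14 other ligands passed the filter on low counts, of which 1 was called higher in WT mice (median 0.37) and 2 in *Adm*+/- mice (median 0.46), beside 10.5% and 12.8% of all tested genes, so the WT count is near the background. *Tnfsf14*, which encodes LIGHT, was at 0.854, 1.5 and 0.988 CPM in WT PBS, 2.74, 2.62 and 2.63 CPM in WT LPS, 0.631, 0.777 and 0.636 CPM in *Adm*+/- PBS and 2.09, 3.18 and 3.03 CPM in *Adm*+/- LPS. All LPS libraries were above all PBS libraries, and it rose by 1.26 (SE 0.26, edgeR adjusted p = 0.00645) in WT mice and by 2 (SE 0.27, edgeR adjusted p = 0.000292) in *Adm*+/- mice. *Tnfsf8*, the CD30 ligand, was called in *Adm*+/- mice (1.47, edgeR adjusted p = 0.031) from 4 to 36 counts per library, and not in WT mice (0.89, edgeR adjusted p = 0.248). Its call was lost without *Adm*+/- PBS replicate 6 (1.27) or 8 (1.10) or any of the *Adm*+/- LPS libraries (1.26 to 1.6), while without *Adm*+/- PBS replicate 7 the value was 2.47. *Tnfsf12*, which encodes TWEAK, the ligand of *Tnfrsf12a*, was at 3.95 to 7.71 CPM over the 12 libraries and had log2 fold changes of 0.20 and −0.05, neither called. That second value turned to 0.18, 0.08 and 0.01 without *Adm*+/- PBS replicate 8, *Adm*+/- LPS replicate 2 and *Adm*+/- LPS replicate 12. The ligands of *Cd40* and *Fas* were barely counted. *Cd40lg* had 0 to 5 counts per library and *Fasl* 0 to 12, and neither was tested.

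Among the 22 other receptors, 21 were tested, with 7 called higher and 1 lower in WT mice (median 0.55) and 11 higher and 3 lower in *Adm*+/- mice (median 0.71). Of all tested genes, 10.5% were called higher and 7.09% lower in WT mice, and 12.8% and 12.2% in *Adm*+/- mice, so the counts of lower receptors are near or below the background. *Ngfr*, a neurotrophin receptor, was at 2.79, 2.97 and 2.58 CPM in *Adm*+/- PBS and 13.4, 17.7 and 17.9 CPM in *Adm*+/- LPS, a rise of 2.55 (SE 0.46, edgeR adjusted p = 0.00173). In WT mice it was at 3.07, 2.62 and 8.28 CPM with PBS and 7.46, 15.3 and 5.26 CPM with LPS (1.03, edgeR adjusted p = 0.115), and on leaving out single libraries it was called there only without WT PBS replicate 5 (1.7, edgeR adjusted p = 0.0134). *Tnfrsf8*, which encodes CD30, rose by 1.54 (edgeR adjusted p = 0.0392) and 2.13 (edgeR adjusted p = 0.00717), though its WT call was lost on leaving out WT PBS replicate 3, 4 or 5, WT LPS replicate 9, *Adm*+/- PBS replicate 7 or 8, or *Adm*+/- LPS replicate 1 or 2 (0.96 to 1.71, adjusted p from 0.052 to 0.208). *Relt* rose by 1.27 (edgeR adjusted p = 0.00169) and 1.06 (edgeR adjusted p = 0.00237).

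*Tnfrsf19*, also called TROY, fell the most in both genotypes. It was at 156, 141 and 169 CPM in WT PBS, 38.3, 56.7 and 70.1 CPM in WT LPS, 164, 169 and 182 CPM in *Adm*+/- PBS and 38.2, 47.4 and 38.3 CPM in *Adm*+/- LPS. Every LPS library lay far below every PBS library. It fell by 1.5 (SE 0.18, edgeR adjusted p = 0.000467) in WT mice and by 2.06 (SE 0.19, edgeR adjusted p = 6.4e-05) in *Adm*+/- mice. *Tnfrsf25*, a death-domain receptor of T cells, fell in *Adm*+/- mice (−1.20, edgeR adjusted p = 0.0134, lost without *Adm*+/- PBS replicate 6 at −0.96 or *Adm*+/- LPS replicate 2 at −1.11) and had a value of −0.92 in WT mice (edgeR adjusted p = 0.0522, called by DESeq2 with an adjusted p = 0.0207 and without WT PBS replicate 3 at −1.06 or *Adm*+/- PBS replicate 6 at −0.93). *Cd27*, a costimulatory receptor of lymphocytes, fell in *Adm*+/- mice (−0.64, edgeR adjusted p = 0.0252). That call was lost without *Adm*+/- PBS replicate 7 or 8 or *Adm*+/- LPS replicate 1 or 12 (−0.67 to −0.54). In WT mice *Cd27* was at −0.32 (edgeR adjusted p = 0.231). T cell markers had a median log2 fold change of −0.35 in WT mice (0 of 9 called) and −0.50 in *Adm*+/- mice. In *Adm*+/- mice 3 of 9 were called lower, beside 12.2% of all tested genes. The part of T cells in these receptor levels was not tested.

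Partners of *Tnfsf13b* and *Tnfsf10* were set beside their ligands. *Tnfrsf13c*, the BAFF receptor, rose by 1.31 (edgeR adjusted p = 0.0112) in WT mice, a call lost without WT LPS replicate 9 (0.95), and by 1.6 (edgeR adjusted p = 0.0022) in *Adm*+/- mice. *Tnfrsf13b*, another receptor for BAFF, rose in WT mice (0.81, edgeR adjusted p = 0.0355) and was not called in *Adm*+/- mice (0.25, edgeR adjusted p = 0.467). The WT call was lost without WT PBS replicate 4 or 5, WT LPS replicate 9, *Adm*+/- PBS replicate 7 or 8, or *Adm*+/- LPS replicate 1 (0.55 to 0.87, adjusted p from 0.0506 to 0.171). *Tnfrsf17* had 0 to 4 counts per library and was not tested. For TRAIL, the death receptor *Tnfrsf10b* was called in *Adm*+/- mice (0.61, edgeR adjusted p = 0.0335, lost without any of the *Adm*+/- PBS libraries or *Adm*+/- LPS replicate 1 or 2, at 0.55 to 0.65). In WT mice *Tnfrsf10b* was at −0.05, and at 0.10 and 0.11 without WT PBS replicate 4 and WT LPS replicate 11. The decoy receptor *Tnfrsf23* rose by 0.81 (edgeR adjusted p = 0.0104) and 0.72 (edgeR adjusted p = 0.0117), calls lost without WT LPS replicate 9 (0.69) and *Adm*+/- LPS replicate 1 (0.64). Another decoy, *Tnfrsf22*, was not called at 0.07 and −0.18. *Tnfrsf11b*, which encodes the soluble decoy osteoprotegerin, rose by 1.14 in *Adm*+/- mice (edgeR adjusted p = 0.00191) and was at 0.63 in WT mice (edgeR adjusted p = 0.0505), where it was called by DESeq2 (adjusted p = 0.0231) and without *Adm*+/- LPS replicate 1 or 2 (0.62 in both).

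**Figure D4:**
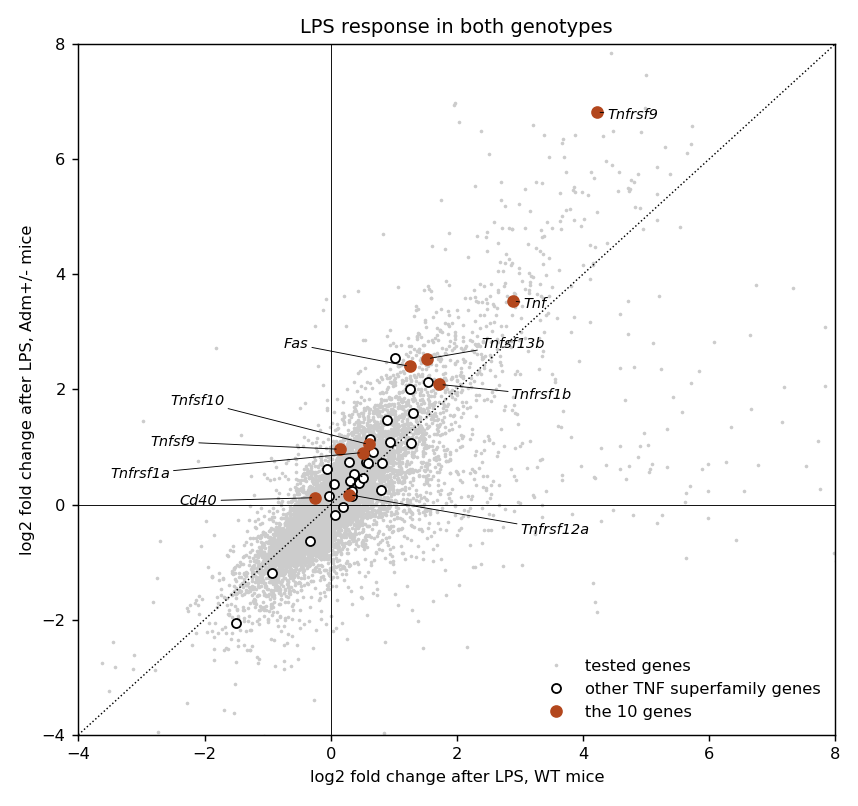
Log2 fold change after LPS in WT mice (x axis) against *Adm*+/- mice (y axis) for the tested genes (grey), the other TNF superfamily genes (open circles) and the 10 genes (red-brown, named), with a dotted line where both are equal. Of the 10 genes, 9 lie above the line and *Tnfrsf12a* below it, and 38 tested genes fall outside the axes.

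Inside the cell, the receptors act through TRAF adaptors, RIP kinases and the inhibitor-of-apoptosis proteins. Of 20 adaptors and kinases, all tested, 1 was called higher and 1 lower in WT mice (median 0.13), and 7 higher and 1 lower in *Adm*+/- mice (median 0.29). The WT counts are below the 10.5% and 7.09% of all tested genes. In *Adm*+/- mice 12.8% of all tested genes were called higher and 12.2% lower, so the count of lower adaptors and kinases is below that share. *Birc3*, a ubiquitin ligase of the receptor complexes, was at 35.4, 56.7 and 26.4 CPM in WT PBS, 178, 116 and 68 CPM in WT LPS, 25.6, 32.8 and 32 CPM in *Adm*+/- PBS and 213, 243 and 201 CPM in *Adm*+/- LPS. It rose by 1.61 (SE 0.33, edgeR adjusted p = 0.00615) and 2.86 (SE 0.34, edgeR adjusted p = 0.000169). Its relative *Birc2* rose in *Adm*+/- mice (1.46, edgeR adjusted p = 0.00071) and was at 0.60 in WT mice (edgeR adjusted p = 0.0761), where it was called by DESeq2 (adjusted p = 0.0422) and without WT PBS replicate 4 (0.79) or WT LPS replicate 11 (0.82). *Map3k14*, the kinase of the noncanonical NF-kappa B route, rose in *Adm*+/- mice (1.13, edgeR adjusted p = 0.00163) and was at 0.37 in WT mice, where it was called only without WT PBS replicate 4 (0.65). *Mlkl*, which carries out necroptosis, was called in *Adm*+/- mice (0.84, edgeR adjusted p = 0.0318), a call lost without *Adm*+/- PBS replicate 6 (0.86) or 8 (0.65) or *Adm*+/- LPS replicate 2 (0.49). *Traf4* fell in both genotypes (−0.51, edgeR adjusted p = 0.0425, and −0.67, edgeR adjusted p = 0.0086), and the WT call was kept on leaving out WT PBS replicate 3 or 4, WT LPS replicate 11 or *Adm*+/- PBS replicate 6 and lost with each other library (−0.54 to −0.35).

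Negative regulators of the pathway limit NF-kappa B signaling or its products. Of 12 such genes, all tested, 8 were called higher in each genotype and 0 lower, beside 10.5% and 12.8% of all tested genes called higher, with medians of 1.09 in WT and 1.90 in *Adm*+/- mice. *Tnfaip3*, which encodes the deubiquitinase A20, was at 30.5, 44.5 and 26.1 CPM in WT PBS, 206, 121 and 46.1 CPM in WT LPS, 27.1, 27.9 and 27.7 CPM in *Adm*+/- PBS and 256, 306 and 253 CPM in *Adm*+/- LPS. As for *Tnf*, WT LPS replicate 9 was the highest and replicate 11 the lowest of the group. It rose by 1.88 (edgeR adjusted p = 0.00777) and 3.30 (edgeR adjusted p = 0.000247). *Tnip3*, a partner of A20, rose by 3.32 (edgeR adjusted p = 0.00217) and 4.40 (edgeR adjusted p = 0.00025), and *Zc3h12a*, an RNase that degrades inflammatory transcripts, by 1.74 (edgeR adjusted p = 0.0023) and 3.03 (edgeR adjusted p = 7.9e-05). *Nfkbia*, which encodes the NF-kappa B inhibitor alpha, rose by 1.26 (edgeR adjusted p = 0.0279) and 2.64 (edgeR adjusted p = 0.000413), its WT call being lost without WT PBS replicate 3 or 5 or WT LPS replicate 9 or 10 (0.84 to 1.26).

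Proteases and regulators of ligand and receptor shedding made up a list of 6 genes, of which 2 were called higher in WT mice (median 0.22) and 3 in *Adm*+/- mice (median 0.53), beside 10.5% and 12.8% of all tested genes. *Timp3*, an inhibitor of the TNF-converting enzyme, was at 293, 345 and 209 CPM in WT PBS, 628, 560 and 518 CPM in WT LPS, 240, 257 and 287 CPM in *Adm*+/- PBS and 643, 726 and 612 CPM in *Adm*+/- LPS. It rose by 1.01 (SE 0.16, edgeR adjusted p = 0.00186) and 1.34 (SE 0.16, edgeR adjusted p = 0.000202). *Rhbdf2*, which helps that enzyme to the cell surface, rose by 0.50 (edgeR adjusted p = 0.0319) and 1.03 (edgeR adjusted p = 0.000476). The WT value was at the fold limit, and its call was lost without WT PBS replicate 3 or 4, WT LPS replicate 9 or 10, *Adm*+/- PBS replicate 7 or *Adm*+/- LPS replicate 2 (0.39 to 0.50). *Furin*, a protease that activates it, rose in *Adm*+/- mice (0.76, edgeR adjusted p = 0.00243) and was at 0.27 in WT mice (edgeR adjusted p = 0.19).

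Genes known to be induced by TNF were read last, as a list of 18. In WT mice 14 were called higher and 0 lower (median 1.62), and in *Adm*+/- mice all 18 were called higher (median 2.49, also with *Cxcl2* at its lower bound), beside 10.5% and 12.8% of all tested genes. Most are induced by endotoxin and other cytokines as well. *Cxcl2*, a neutrophil chemokine, was at 0.194, 0.922 and 0.0618 CPM in WT PBS and 15.4, 6.32 and 2.19 CPM in WT LPS, a rise of 4.31 (edgeR adjusted p = 0.0035). That value was 3.39 without WT LPS replicate 9 and 5.78 without WT PBS replicate 4. In *Adm*+/- PBS it had 0 or 1 count in each library, and in *Adm*+/- LPS it was at 35.4, 47.6 and 30.3 CPM, at least 299-fold higher when each PBS library is set to a floor of 3 counts. *Cxcl1* rose by 2.70 (edgeR adjusted p = 0.0287) in WT mice, a call lost without WT PBS replicate 3 or 5 or WT LPS replicate 9 (1.44 to 2.48), with a value of 3.55 without WT PBS replicate 4, and by 5.61 (edgeR adjusted p = 0.000414) in *Adm*+/- mice. *Ccl2* rose by 3.13 (edgeR adjusted p = 0.0116), lost without WT LPS replicate 9 (2.43) and at 4.2 without WT PBS replicate 4, and by 4.52 (edgeR adjusted p = 0.00106), which was 5.96 without *Adm*+/- PBS replicate 7.

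Between the LPS groups, 3 of these 18 genes were called higher in *Adm*+/- than in WT mice and 0 lower, beside 0.327% and 1.72% of all tested genes, with a median of 0.88 over the list. *Sele*, which encodes the endothelial adhesion molecule E-selectin, was at 5.33, 1.95 and 0.518 CPM in WT LPS and 15.3, 16.7 and 13.6 CPM in *Adm*+/- LPS (2.52, SE 0.54, edgeR adjusted p = 0.0388). *Csf2*, which encodes GM-CSF, was at 7.21, 3.83 and 2.67 CPM and 12.2, 11.6 and 13.1 CPM (1.42, SE 0.33, edgeR adjusted p = 0.0494). *Ier3*, an early response gene, was at 41, 28.3 and 34.9 CPM and 64.4, 59.5 and 55.4 CPM (0.78, SE 0.16, edgeR adjusted p = 0.0317). In all 3 the groups were separate, yet the calls lie close to the threshold. That of *Sele* was kept only on leaving out WT PBS replicate 4 or 5 or WT LPS replicate 9 or 11, that of *Csf2* only without WT PBS replicate 5 or WT LPS replicate 9, and that of *Ier3* only without a WT PBS library, WT LPS replicate 9 or *Adm*+/- PBS replicate 6. With each other library left out, the adjusted p-values ran from 0.0522 to 0.153 for *Sele* (2.35 to 2.59), from 0.0565 to 0.161 for *Csf2* (1.15 to 1.47) and from 0.0543 to 0.136 for *Ier3* (0.66 to 0.83). Among all fits that left out 1 library, the value of *Sele* ran from 2.05 without WT LPS replicate 11 to 3.62 without WT LPS replicate 9. The difference of the LPS response between genotypes was not called for any of the 18 by edgeR, while 11 had an unadjusted p below 0.05, beside 7.85% of tested genes. Within the genotypes, *Sele* rose by 3.35 (edgeR adjusted p = 0.0085, at 2.25 without WT LPS replicate 9, and not called by limma-voom at 2.89 with an adjusted p = 0.0513) and 5.58 (edgeR adjusted p = 0.000202), *Csf2* by 1.67 (edgeR adjusted p = 0.00795) and 3.34 (edgeR adjusted p = 0.000111), and *Ier3* by 0.53 (edgeR adjusted p = 0.0389) and 1.24 (edgeR adjusted p = 0.000288). The WT call of *Ier3* was kept only without WT PBS replicate 4, WT LPS replicate 10 or *Adm*+/- PBS replicate 6 (0.39 to 0.56 with the others left out). Endothelial markers, led by *Cdh5* and *Vwf*, summed to 3580–4520 CPM in WT PBS, 3200–3290 in WT LPS, 3650–4180 in *Adm*+/- PBS and 3460–3840 in *Adm*+/- LPS, and their part in the level of *Sele* was not tested.

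**Figure D5:**
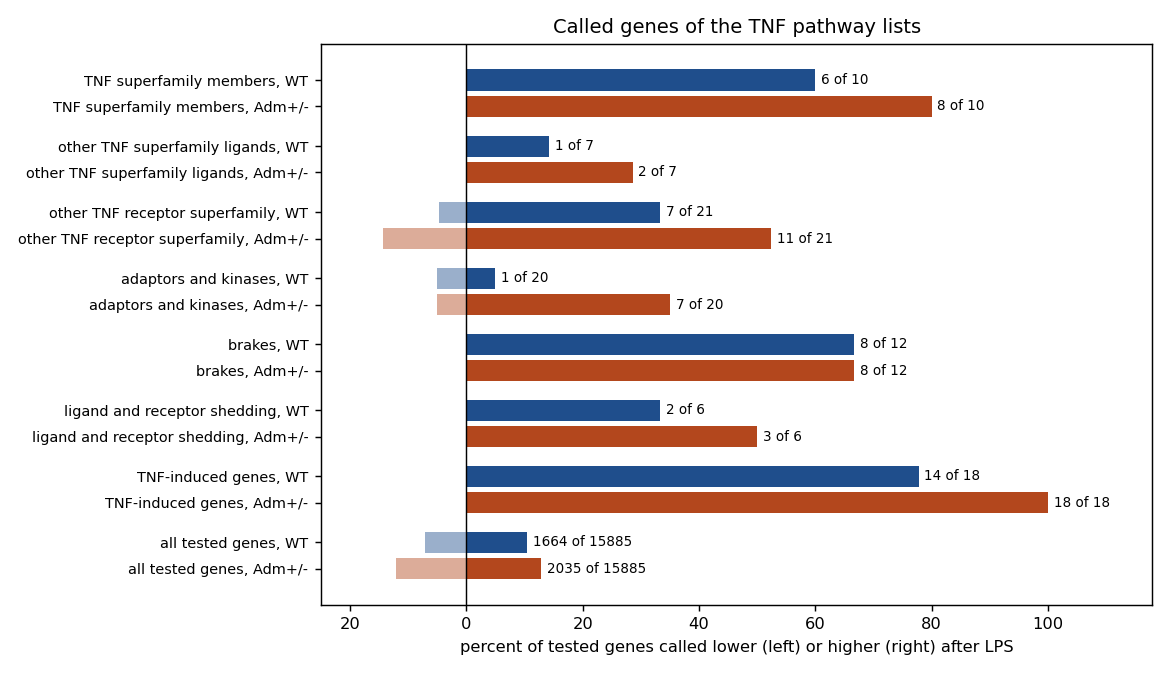
Percent of tested genes called higher (right) or lower (left, paler) after LPS in WT (blue) and *Adm*+/- mice (red-brown) for the 10 genes, the other ligands and receptors, adaptors and kinases, negative regulators (brakes), shedding genes, TNF-induced genes and all tested genes. The number called higher of the number tested stands beside each bar, from 1 of 20 for adaptors and kinases in WT mice to 18 of 18 for TNF-induced genes in *Adm*+/- mice.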

How the data were processed

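Whole-lung RNA of 12 mice was sequenced after depletion of ribosomal RNA with a directional kit. Each library is 1 mouse. Per the labels and the methods of the study, the authors trimmed reads with Trim Galore, aligned them by HISAT2 (mm10) and assigned them to Gencode genes by featureCounts, and they deposited raw counts with no normalization for 52550 genes. The strand setting and the Gencode release of the counting are not given in the sources used here. Groups and replicate numbers come from the sample labels, and 0 columns belonged to other samples. None of the 12 pairs of libraries within a group held identical counts, and all differed by more than sampling noise.

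Tests used edgeR 4.0.16 under R 4.3.3. Versions of the tools behind the alternatives were 3.58.1 for limma and 1.42.0 for DESeq2. Of 21950 protein-coding genes, the 15885 kept by filterByExpr over the 4 groups were scaled by TMM and fitted once over the 12 libraries with edgeR's quasi-likelihood test, with 1 coefficient per group and 8 residual degrees of freedom. The scripts were tested on simulated data. p-values were adjusted over all tested genes by Benjamini-Hochberg within each of 5 contrasts, two-sided. CPM were counts per TMM-scaled library size, RPKM used exonic length in Gencode M21, and log2 CPM used a prior count of 2. The floor was 3 counts per library and covers counting error only, since reads carried no molecular identifiers.

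The 10 genes, the other pathway lists, the 12 marker lists and the tests were chosen with earlier results of these data known. Named pathway genes are up to 4 per list with the largest log2 fold change in each direction among called genes, the partners of the 10 genes, and any called between genotypes. The 5 nearest profiles are given for *Tnf* and *Tnfrsf9*, and the 2 most abundant genes lead a marker list. Alternatives changed the scaling, the tool, the filters, the libraries and the fold test. Upstream sequences are from RefSeq on mm10. No set test was run.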

Additional observations from a re-analysis of the deposited data

How the results depend on the processing

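In WT mice, 4 to 6 of the 10 genes were called higher when single libraries were left out, and 6 to 8 in *Adm*+/- mice. No paired analysis was possible because the sample labels give no pairing of mice between groups. The losses concerned *Tnfrsf1a* and *Fas* in WT mice and *Tnfsf9* and *Tnfsf10* in *Adm*+/- mice, which were also lost in a test against an absolute log2 fold change of 0.5 (glmTreat, adjusted p of 0.833, 0.118, 0.14 and 0.123). The WT values of *Tnfrsf1a* and *Fas* also lost the call in a fit of only the 6 libraries (adjusted p of 0.08 and 0.113) and without WT PBS replicate 5 and *Adm*+/- PBS replicate 6 (0.47 and 0.99), and *Tnfrsf1a* with all annotated genes (0.48). *Tnfsf10* in *Adm*+/- mice also lost it without those 2 PBS libraries (0.84, adjusted p = 0.0515). A fit without WT LPS replicates 9 and 11, chosen after seeing the data, leaves 1 library in WT LPS, assumed to vary like the other groups. Its values were 0.57 for *Tnfrsf1a* and 1.30 for *Fas*, no smaller than with 3 libraries, and neither was called. Of 21 other named genes called in WT mice, 14 lost the call in the fit of 6 libraries (adjusted p from 0.0513 to 0.158), 9 with glmTreat, 10 without WT LPS replicates 9 and 11, 6 without WT PBS replicate 5 and *Adm*+/- PBS replicate 6, 2 with all annotated genes, and 3 with limma-voom (*Tnfrsf8*, *Cxcl1* and *Sele*, adjusted p of 0.0631, 0.106 and 0.0513). DESeq2 called 3 more in WT mice (*Tnfrsf25*, *Tnfrsf11b* and *Birc2*). Of 30 called in *Adm*+/- mice, 8 lost it with glmTreat, 2 without WT PBS replicate 5 and *Adm*+/- PBS replicate 6, and 1 without WT LPS replicates 9 and 11. Of 3 called between genotypes in LPS, all 3 lost it with glmTreat, 2 in the fit of 6 libraries, 2 without WT LPS replicates 9 and 11, and *Csf2* with all annotated genes or a minimum of 1 CPM. With limma-voom 1 of the 10 genes, *Tnfrsf9*, was called between genotypes in LPS. The other member calls were kept in all 22 alternatives. The difference could not be fitted on 6 libraries, and *Tnfrsf9* did not pass the filter in the fit of the 6 PBS libraries.

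Counts over all tested genes moved with the tool and the libraries, and the cause was not tested. In WT mice the genes called higher and lower were 806 and 195 with glmTreat, 804 and 348 in the fit of 6 libraries, 610 and 149 without WT LPS replicates 9 and 11, and 1002 to 1699 and 441 to 1448 without single libraries. In *Adm*+/- mice glmTreat called 1096 and 599. For the difference, DESeq2 called 46 and 122, limma-voom 1 lower, glmTreat 13 lower and the fit without WT LPS replicates 9 and 11 called 1 higher, and without single libraries 0 to 2 higher and 5 to 63 lower were called. Between genotypes in LPS, DESeq2 called 191 and 612, glmTreat 8 and 125, the fit without WT LPS replicates 9 and 11 called 8 and 99, that without WT PBS replicate 5 and *Adm*+/- PBS replicate 6 called 140 higher, and fits without single libraries 6 to 133 higher and 73 to 476 lower, with 0 to 1 of the 10 genes.

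Signs turned only for values that were not called, and the cause was not tested. Without WT LPS replicates 9 and 11, *Tnfsf9* and *Tnfrsf22* were at −0.07 in WT mice, and *Tnfrsf22* was at −0.15 without WT PBS replicate 5 and *Adm*+/- PBS replicate 6. With single libraries left out, the WT values ran from −0.15 to 0.29 for *Tnfsf9*, −0.28 to 0.11 for *Tnfrsf10b* and −0.15 to 0.30 for *Tnfrsf22*, and *Tnfsf12* ran from −0.27 to 0.18 in *Adm*+/- mice. Between genotypes in PBS they ran from −0.12 to 0.07 for *Tnfrsf1a* (the lowest without WT PBS replicate 5 and *Adm*+/- PBS replicate 6 together), −0.20 to 0.02 for *Tnfrsf1b*, −0.97 to 0.03 for *Tnfrsf9*, −0.02 to 0.13 for *Cd40* and −0.57 to 0.03 for *Fas*, and in LPS from −0.18 to 0.68 for *Tnf*. With 3 mice a group and 5 to 19 counts of *Tnfrsf9* per PBS library, its fold changes are known only within wide intervals.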
